A study of Mus musculus with 18 samples.

Results

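The 10 genes described here encode proteins that build plasma lipoproteins in the liver: Apoa1, Apoa2 and Apom of high-density lipoprotein (HDL), Apob and its loading partner Mttp of very-low-density lipoprotein (VLDL), and the exchangeable apolipoproteins Apoe, Apoc1, Apoc3, Apoa4 and Apoa5. They were picked by gene symbol, with earlier results of these data known, and are 10 of the 54532 genes in the deposited table of liver RNA-seq. All 10 were among the 10216 genes with a mean of at least 1 FPKM over the 18 mice, the genes that were tested. FPKM are fragments per kilobase of gene, scaled to a library size, so that levels of different genes can be compared. The library size behind the deposited values was not the plain fragment total of each mouse.

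The livers came from male C57BL/6J mice, 6 weeks old at the start, in 3 groups of 6: NC mice on normal chow, HFD mice on a high-fat diet, and SZ-A mice on the same high-fat diet treated with SZ-A, the alkaloids of mulberry twig. The HFD was fed for 14 weeks before treatment and continued during it, and the HFD group received saline in place of SZ-A. SZ-A was given for 8 weeks by the deposited design text, although the methods state a shorter course of 6 weeks, and the dose and route of SZ-A in the sequenced mice are not given in the sources used here. The mice were fasted overnight before the livers were taken. The title of the mouse NC6 places it on chow, but its diet label reads high-fat. It was kept in NC, and results that change without it are given both ways.

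HDL forms when ApoA-I, secreted by liver and intestine, takes up phospholipid and cholesterol from cells. VLDL forms inside hepatocytes, where microsomal triglyceride transfer protein loads triglyceride onto ApoB, a single copy of which stays with each particle. The smaller apolipoproteins move between particles in plasma and set how fast the triglyceride is hydrolysed and the remnants are taken up.

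Apoa1, Apom, Apoa5 and Mttp transcripts fell in HFD livers, by 32.8% to 46.7%, while Apoa2, Apoe, Apoc1 and Apoc3 had ranges that overlapped between the 3 groups. Apom was 67.2% higher in SZ-A than in HFD livers (limma, adjusted p = 0.0341). This call was lost in 12 of 24 alternative fits. Apoa1 was 71.7% higher in SZ-A than in HFD livers, with ranges that did not overlap, but its adjusted p of 0.0557 (limma) missed the threshold. Apoa5 and Mttp were still lower in SZ-A than in NC livers. A gene was called where its p, adjusted by Benjamini-Hochberg over all genes tested, was under 0.05 and its fold change over 1.2, by limma on log2(FPKM + 0.1) in the 2 groups compared. Fold changes are on that scale, where the added 0.1 is small against every member's level. The comparisons of HFD with NC and of SZ-A with HFD share the same 6 HFD mice, so their values are set side by side and not related to each other.

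**Figure D1:**
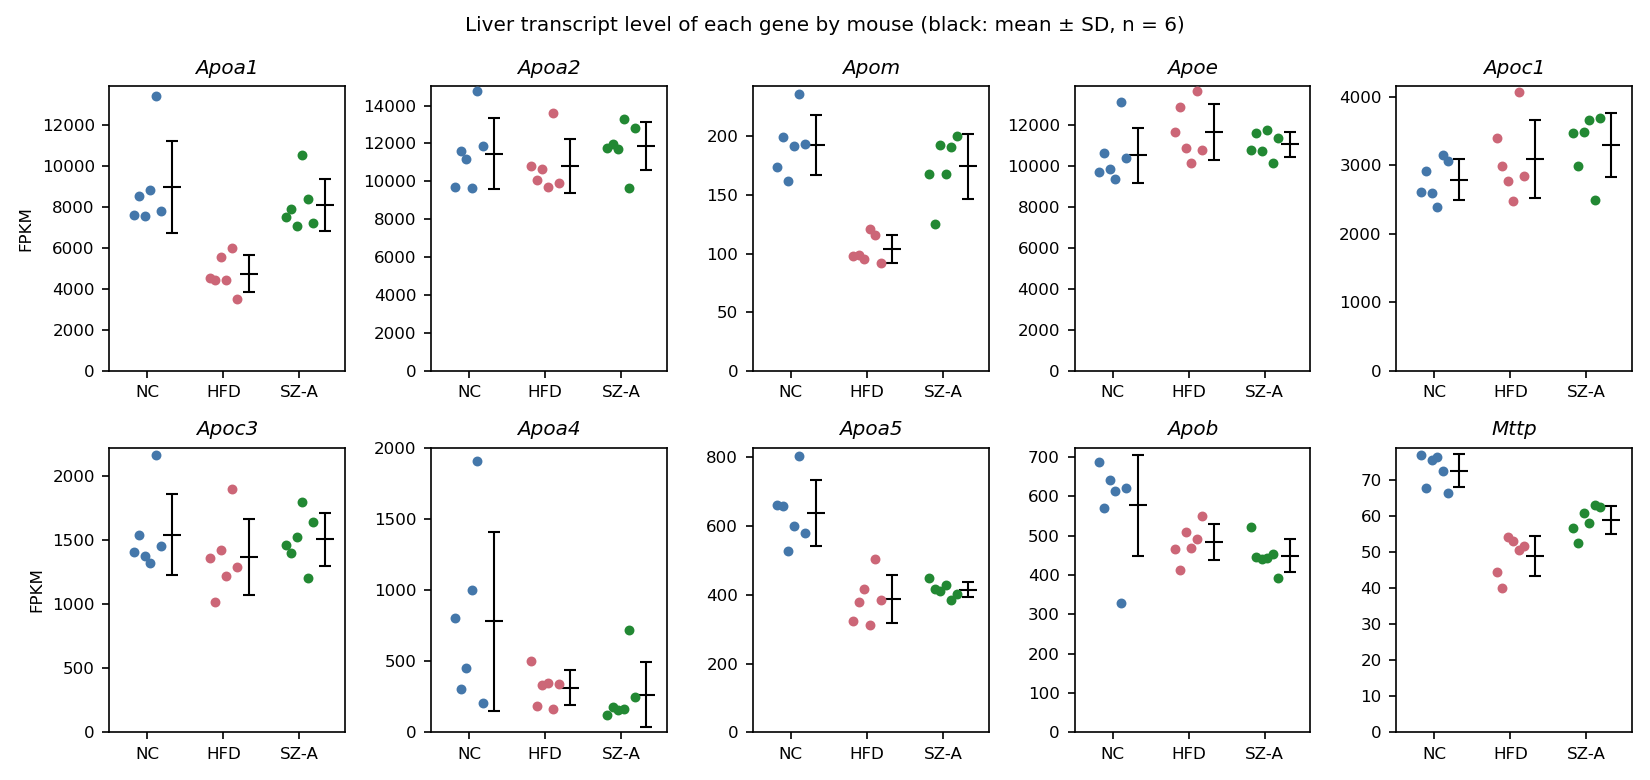
FPKM of each of the 10 genes (y axis, linear from 0) in every mouse of the NC, HFD and SZ-A groups, with the mean ± SD of 6 mice in black. The HFD points of Apoa1 (3504 to 6005) and Apom (91.6 to 121) lie below all points of the other groups, and those of Mttp (40.0 to 54.2) and Apoa5 (312 to 504) below all NC points.

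Among all genes tested, 20.2% were called between HFD and NC (10.7% higher and 9.49% lower in HFD), 0.147% between SZ-A and HFD (0.0783% higher and 0.0685% lower in SZ-A) and 9.6% between SZ-A and NC (5.31% higher and 4.3% lower in SZ-A). Of the 10 members, 4 were lower and 0 higher in HFD than in NC, 1 was higher and 0 lower in SZ-A than in HFD, and 2 were lower and 0 higher in SZ-A than in NC. At an unadjusted p under 0.05 by limma the numbers were 5, 3 and 3. The groups did not overlap for 4 members between HFD and NC (10.5% of all genes), for 2 between SZ-A and HFD (1.28% of all genes) and for 2 between SZ-A and NC (5.5% of all genes). The median log2 fold change of the members was -0.40 for HFD against NC, where that of all genes was -0.03. It was 0.13 for SZ-A against HFD, beside 0.03 over all genes, and -0.14 for SZ-A against NC, beside -0.01.

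The scale between mice bears on these directions. The library size behind the FPKM was 0.93 to 1.02 times the fragments on genes in NC mice. It was 0.998 to 1.14 times in HFD mice and 0.97 to 1.05 times in SZ-A mice. Why it differed was not tested. Scaling by median ratios over genes left the median log2 fold change of all genes at -0.03 (HFD against NC) and 0.03 (SZ-A against HFD). With FPKM rescaled so that every mouse has the same sum, the median log2 fold change of all genes moved from -0.03 to 0.15 for HFD against NC and from 0.03 to -0.15 for SZ-A against HFD. The called genes then split into 2100 higher and 334 lower in HFD than in NC, where the deposited scale gave 1092 and 970, and into 10 higher and 206 lower in SZ-A than in HFD, where the deposited scale gave 8 and 7. Apoa1, Apom, Apoa5 and Mttp stayed lower in HFD than in NC on both scales.

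Fragments on genes totalled 17163191 to 20493907 per mouse, and the 10 genes together took 4.73% to 6.33% of them. Apom, the member with fewest, had 1810 to 3931 fragments per mouse, and Apoe had 365756 to 633309. The library of NC5 stood apart: genes of at least 5000 bases were low in it against genes under 1000 bases. This length tilt, the difference between the median log2 deviations of the long and the short genes, was -0.38 in NC5, and the values of the groups ran from -0.38 to 0.21 (NC), from -0.03 to 0.12 (HFD) and from -0.19 to 0.02 (SZ-A). Hepatocyte markers summed to 35813 to 51553 FPKM in NC livers, to 27543 to 43666 FPKM in HFD livers and to 31622 to 50689 FPKM in SZ-A livers, with 9 of 10 genes in the table. Most of that sum was Alb, the plasma albumin gene, with means of 29448, 21469 and 24030 FPKM in the same order. Alb was at 16117 FPKM or more in every mouse. Of the 9 hepatocyte markers tested, 1 was called higher and 1 lower in HFD than in NC. Their median log2 fold change was 0.01. Apoa1, Apoa4 and Apob are made in the intestine too. Of 8 enterocyte markers, 4 were at 0 in all 18 mice, and 7 had means under 1 FPKM, the exception being Fabp2, a fatty acid-binding protein.

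The genes lie in 2 clusters and at 4 sites of their own in GRCm38. Apoa1 (chr9:46228580-46230466, + strand), Apoc3 (chr9:46232933-46235636, - strand), Apoa4 (chr9:46240696-46243459, + strand) and Apoa5 (chr9:46268633-46271919, + strand) lie within 43340 bases, with gaps of 2466, 5059 and 25173 bases. Apoc1 (chr7:19689481-19692660) and Apoe (chr7:19696109-19699188) are neighbours on the - strand, 3448 bases apart. The others are Apoa2 (chr1:171225054-171226379, + strand), Apob (chr12:7977648-8016835, + strand), Apom (chr17:35128997-35132050, - strand) and Mttp (chr3:138089854-138144968, - strand). The library kit does not mark strand, so reads from an overlapping antisense gene cannot be told apart. Such genes overlap Apoa4, Apoa5 and Mttp, each with a mean of at most 0.59 FPKM.

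Promoter sequence is shown for 4 members. Apoa1 and Apoa5 share a cluster and parted in SZ-A livers. Apom changed with Apoa1 from another chromosome, and Apoa2 did not pass the test in any comparison. Apom and Apoa2 were also the only members with a match to the nuclear receptor and HNF1 motifs described next. RefSeq windows from 250 bases before to 50 bases after a start (GRCm38.p6) were matched for 8 of the 10 genes, in 12 windows, and none was matched for Apoc1 and Apoc3. They were searched on both strands, with up to 2 mismatches, for pairs of the nuclear receptor half-site AGGTCA in the same direction 1 base apart (DR1) or 4 bases apart (DR4) or inverted 1 base apart (IR1), and for the HNF1 palindrome of GTTAAT, 1 base and its reverse complement. In the first 2 lines capitals mark the match, DR1 on the reverse strand in Apoa2 and HNF1 in Apom. The 200 bases before the start of Apoa1 and of Apoa5 follow, with an exact TATAAA in capitals in Apoa5, a search added after the data were seen.
Apoa2 (chr1:171224983-171225012, + strand): ctccagccTGATCTCTGCCCTtctggactt
Apom (chr17:35131833-35131862, - strand): aggttgaaGTTACTTATTAGCaggttaaag
Apoa1 (chr9:46228380-46228579, + strand): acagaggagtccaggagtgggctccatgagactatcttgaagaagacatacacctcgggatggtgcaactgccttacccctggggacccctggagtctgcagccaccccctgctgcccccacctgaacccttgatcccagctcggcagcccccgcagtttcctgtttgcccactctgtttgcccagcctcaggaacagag
Apoa5 (chr9:46268408-46268607, + strand): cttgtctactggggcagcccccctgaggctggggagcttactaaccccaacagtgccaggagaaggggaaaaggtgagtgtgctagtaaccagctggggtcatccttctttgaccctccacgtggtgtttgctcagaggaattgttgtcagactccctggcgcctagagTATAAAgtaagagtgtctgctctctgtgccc

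The DR1 match began 63 bases before the Apoa2 start, and 3.86% of all 32851 windows held such a match. The HNF1 match began 53 bases before the RefSeq start of Apom, where the letters match on either strand. That start, and the match itself, lie inside the longer gene model of the deposited table, whose first base on the - strand is farther upstream. Of all windows, 1.358% held such a match. DR4 and IR1 matches, found in 3.023% and 1.138% of all windows, were in 0 of the 12 member windows. TATAAA was in 5 of the 12 and in 13.6% of all windows, and in Apoa5 began 31 bases before the upstream of its RefSeq starts, the start used for the line above. The 200 bases of Apoa1 held none of these letters. A match is only a match of letters within these windows.

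Apoa1 encodes the main protein of HDL. It ranged from 7582 to 13420.0 FPKM in NC livers (median 8178), from 3504 to 6005 FPKM in HFD livers (median 4502) and from 7086 to 10521 FPKM in SZ-A livers (median 7719). Every HFD mouse lay below every mouse of the other groups. The mean fell from 8967 ± 2243 (SD, n = 6) in NC to 4752 ± 898 in HFD livers and was 8112 ± 1275 in SZ-A livers. The log2 fold change was -0.91 ± 0.17 (SE) for HFD against NC, with a limma adjusted p of 0.00235. The highest NC value was that of NC5, and without it the fold change was -0.78 and the limma adjusted p 0.00211. For SZ-A against HFD the log2 fold change was 0.78 ± 0.14, with a 95% interval of 0.47 to 1.09 and a limma adjusted p of 0.0557, and 6 of 6 SZ-A mice lay above the HFD mean. SZ-A and NC differed by -0.13 on the log2 scale, with an interval of -0.46 to 0.21.

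Apom encodes the lipocalin of HDL that carries sphingosine 1-phosphate. It ranged from 161 to 236 FPKM in NC livers (median 192), from 91.6 to 121 FPKM in HFD livers (median 98.6) and from 125 to 200 FPKM in SZ-A livers (median 180). Again no HFD mouse reached the lowest mouse of either other group, although the lowest SZ-A value lay just above the highest HFD value. The log2 fold change was -0.89 ± 0.10 for HFD against NC, with a limma adjusted p of 0.000152. It was 0.74 ± 0.12 for SZ-A against HFD, an increase of 67.2%, with a limma adjusted p of 0.0341. The limma adjusted p was above 0.05 in 9 of the 12 fits that left out a mouse, although the log2 fold change stayed between 0.70 and 0.83. With the length tilt as a covariate, an alternative added after the data were seen, the log2 fold change was 0.56 and the limma adjusted p 0.215. The tilt itself differed between these groups, with medians of 0.03 in HFD and -0.04 in SZ-A mice. In this fit tilt and treatment cannot be fully told apart. SZ-A and NC differed by -0.15 on the log2 scale, with an interval of -0.42 to 0.12.

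Apoa2 encodes the second most abundant HDL protein. Its levels were 9646 to 14760 FPKM in NC livers (median 11387), 9715 to 13582 FPKM in HFD livers (median 10359) and 9624 to 13280 FPKM in SZ-A livers (median 11855). The groups overlapped over nearly their whole ranges. The log2 fold change was -0.08 for HFD against NC, with a 95% interval of -0.36 to 0.20, and 0.14 for SZ-A against HFD, with an interval of -0.11 to 0.38.

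The ratio of Apom to Apoa1 within a mouse does not depend on the scale between mice. It was 0.0176 to 0.0248 in NC livers (median 0.0222), 0.0171 to 0.0273 in HFD livers (median 0.0219) and 0.0158 to 0.0278 in SZ-A livers (median 0.0225). The groups overlapped throughout: the mean log2 ratio differed by 0.01 between HFD and NC, by -0.04 between SZ-A and HFD and by -0.02 between SZ-A and NC, each with an adjusted p of 0.92 (exact two-sided permutation test, n = 6 and 6, adjusted over 18 tests of 6 ratios in 3 comparisons). The smallest unadjusted p that this design allows is 0.002165.

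**Figure D2:**
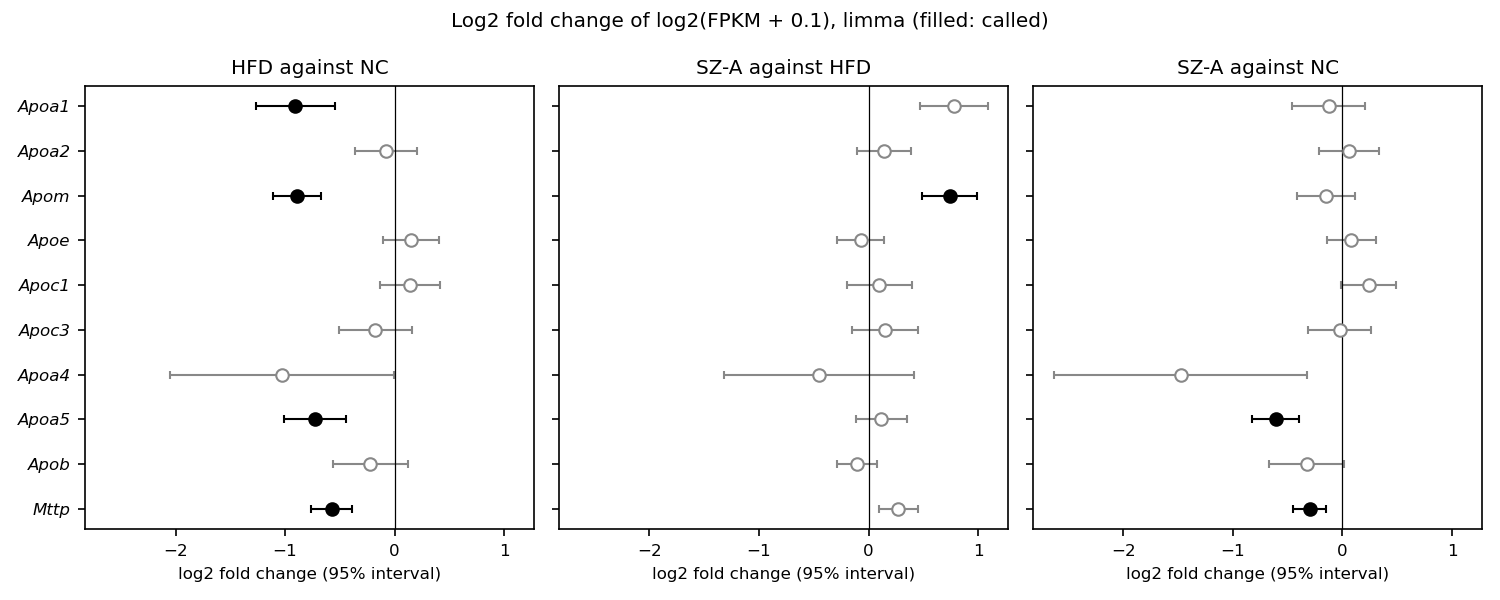
Log2 fold change of each gene (x axis) with its 95% interval in the 3 comparisons, from limma on log2(FPKM + 0.1). Filled points passed an adjusted p under 0.05 with a fold change over 1.2: Apoa1, Apom, Apoa5 and Mttp for HFD against NC, Apom for SZ-A against HFD, and Apoa5 and Mttp for SZ-A against NC.

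Mttp encodes the transfer protein that lipidates ApoB. It ranged from 66.4 to 77.2 FPKM in NC livers (median 74.1), from 40.0 to 54.2 FPKM in HFD livers (median 51.2) and from 52.6 to 63.2 FPKM in SZ-A livers (median 59.4). Every NC mouse lay above every HFD and every SZ-A mouse, and SZ-A overlapped HFD only at its lower end. The log2 fold change was -0.57 ± 0.09 for HFD against NC (limma, adjusted p = 0.000716) and -0.30 ± 0.07 for SZ-A against NC (limma, adjusted p = 0.0175). For SZ-A against HFD it was 0.27 ± 0.08, with an interval of 0.09 to 0.45 and a limma adjusted p of 0.16.

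Apob encodes the structural protein of VLDL. It was 328 to 688 FPKM in NC livers (median 618), 413 to 551 FPKM in HFD livers (median 480) and 393 to 523 FPKM in SZ-A livers (median 445). The other 5 NC mice, at 571 FPKM or more, lay above every HFD and SZ-A mouse, and the lowest NC value was that of NC5. The log2 fold change was -0.22 for HFD against NC, with an interval of -0.56 to 0.12 and a limma adjusted p of 0.342. Without NC5 it was -0.38, with a limma adjusted p of 0.00836. For SZ-A against NC it was -0.33 with a limma adjusted p of 0.212, and without NC5 it was -0.48 with a limma adjusted p of 0.00481. The Apob gene model has 13934 bases, and NC5 is the mouse with low values of long genes. The part of the length tilt in the Apob value of NC5 was not tested directly. With the tilt as a covariate in the fit, the log2 fold change for HFD against NC was -0.33 and the limma adjusted p 0.0171.

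The ratio of Mttp to Apob was 0.107 to 0.221 in NC livers (median 0.118), 0.0938 to 0.113 in HFD livers (median 0.0999) and 0.109 to 0.159 in SZ-A livers (median 0.134). HFD mice had the low ratios, with a slight overlap with either other group. The mean log2 ratio differed by -0.35 between HFD and NC (exact permutation test, p = 0.008658, adjusted p = 0.026) and by 0.38 between SZ-A and HFD (exact permutation test, p = 0.004329, adjusted p = 0.0156). The highest ratio was that of NC5, and without that mouse the difference between HFD and NC was -0.20, with an adjusted p of 0.0455 by the same exact permutation test. SZ-A and NC differed by 0.03, with an adjusted p of 0.92 by that test.

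Apoa5 encodes an activator of triglyceride hydrolysis in plasma. It ranged from 526 to 804 FPKM in NC livers (median 631), from 312 to 504 FPKM in HFD livers (median 382) and from 384 to 449 FPKM in SZ-A livers (median 415). Every NC mouse lay above every mouse on HFD, treated or not, while the SZ-A mice lay inside the HFD range. The log2 fold change was -0.73 ± 0.13 for HFD against NC (limma, adjusted p = 0.00197) and -0.61 ± 0.10 for SZ-A against NC (limma, adjusted p = 0.00303). For SZ-A against HFD it was 0.12, with an interval of -0.11 to 0.35. On the common-sum scale that difference was -0.06. The spread of Apoa5 was 5.33% of the mean (coefficient of variation) in SZ-A livers and 17.99% in HFD livers.

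The ratio of Apoa5 to Apoa1 took another course than that of Apom to Apoa1. It was 0.0599 to 0.0872 in NC livers (median 0.0719), 0.0704 to 0.110 in HFD livers (median 0.0796) and 0.0407 to 0.0597 in SZ-A livers (median 0.0543). Every SZ-A mouse lay below every mouse of the other groups. The mean log2 ratio differed by -0.66 between SZ-A and HFD (exact permutation test, p = 0.002165, adjusted p = 0.00974), and the difference between SZ-A and NC was -0.48 with the same p and adjusted p. HFD and NC differed by 0.18, with an adjusted p of 0.301 by the exact permutation test. For SZ-A against HFD the ratio difference is the change of Apoa5 (0.12) less that of Apoa1 (0.78). It thus mostly restates the change of Apoa1.

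Apoc3 encodes an inhibitor of lipoprotein lipase and of remnant uptake, and lies 2466 bases from Apoa1. It ranged from 1321 to 2169 FPKM in NC livers (median 1433), from 1023 to 1904 FPKM in HFD livers (median 1331) and from 1208 to 1802 FPKM in SZ-A livers (median 1496). These ranges overlapped, and the log2 fold change was -0.18 for HFD against NC (95% interval -0.51 to 0.15) and 0.15 for SZ-A against HFD (95% interval -0.15 to 0.46). The ratio of Apoc3 to Apoa1 was higher in every HFD mouse than in any mouse of the other groups. It was 0.149 to 0.187 in NC livers (median 0.181), 0.230 to 0.370 in HFD livers (median 0.287) and 0.144 to 0.228 in SZ-A livers (median 0.186). The mean log2 ratio differed by 0.73 between HFD and NC and by -0.63 between SZ-A and HFD, each with a p of 0.002165 and an adjusted p of 0.00974 (exact permutation test). SZ-A and NC differed by 0.10, with an adjusted p of 0.588 by that test. Such a difference is the log2 change of Apoc3 less that of Apoa1, which was -0.91 (HFD against NC) and 0.78 (SZ-A against HFD). It mostly restates the change of Apoa1 and is not separate evidence on Apoc3. The ratios were adjusted over 18 tests, and Apoa1 itself over all genes tested.

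Apoa4 encodes a lipid-binding protein of chylomicrons and HDL, and varied more between mice of a group than any other member. Its levels were 210 to 1910 FPKM in NC livers (median 628), 167 to 504 FPKM in HFD livers (median 337) and 120 to 724 FPKM in SZ-A livers (median 170). The lowest NC mouse, NC6, lay inside the HFD range, and 5 of the 6 SZ-A mice lay at 246 FPKM or below, with SZ-A5 alone at 724. The coefficient of variation was 80.8% among NC mice, 39.4% among HFD mice and 86.8% among SZ-A mice. No comparison passed the test with all mice: the log2 fold change was -1.03 ± 0.47 for HFD against NC (limma, adjusted p = 0.142), -0.45 ± 0.40 for SZ-A against HFD (limma, adjusted p = 0.641) and -1.48 ± 0.54 for SZ-A against NC (limma, adjusted p = 0.101). Without NC6, the mouse with the contradicting diet label, the first was -1.33 with a limma adjusted p of 0.0469 and the last -1.78 with a limma adjusted p of 0.0486. Without NC5, the highest NC mouse, they were -0.69 and -1.14 with limma adjusted p of 0.244 and 0.152, and without both NC5 and NC6 they were -0.98 and -1.43 with limma adjusted p of 0.0883 and 0.088. Without SZ-A5 the last was -1.83 with a limma adjusted p of 0.0284. The difference between SZ-A and HFD was -0.80 without SZ-A5 and -0.29 without SZ-A1, and -0.82 with the length tilt as a covariate, and passed in none of these fits. Cidec, a lipid droplet protein, was the gene tested with the nearest course to that of Apoa4 over the 18 mice.

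**Figure D3:**
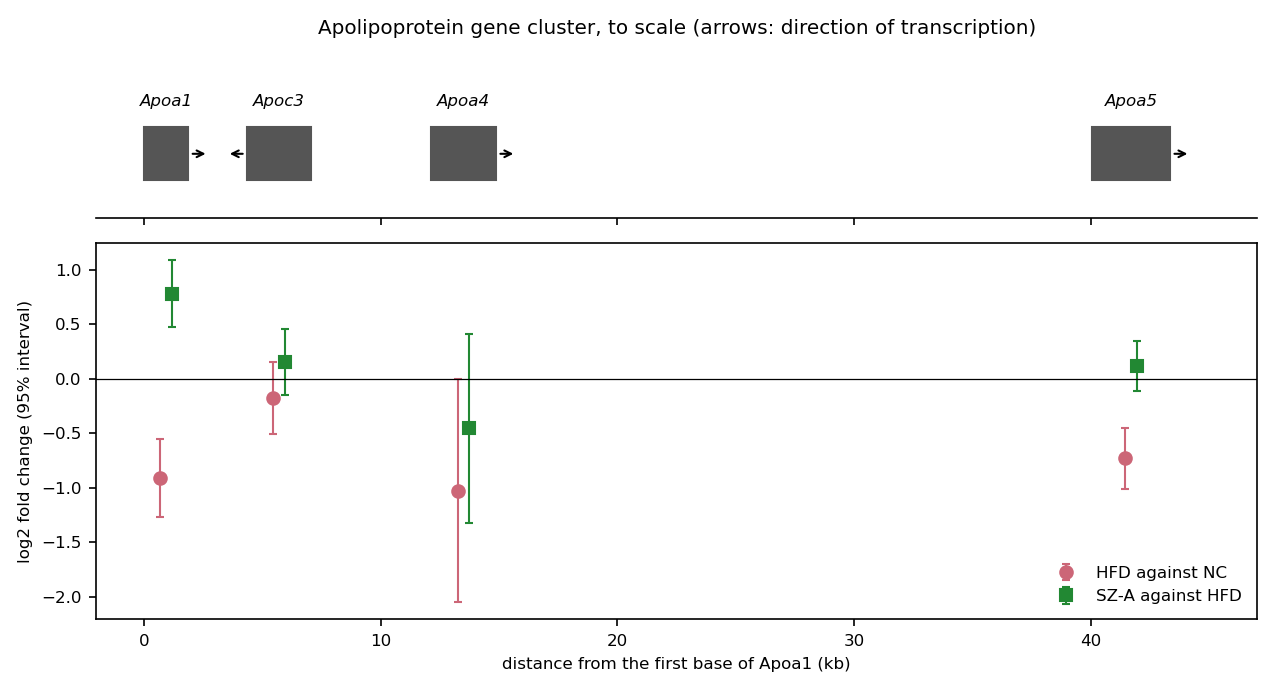
The 4 genes of the chromosome 9 cluster drawn to scale (x axis, kb from the first base of Apoa1, arrows for the direction of transcription) above their log2 fold changes with 95% intervals (y axis). Apoa1 moved by -0.91 for HFD against NC and by 0.78 for SZ-A against HFD, while Apoc3, 2466 bases away, moved by -0.18 and 0.15, and Apoa5 by -0.73 and 0.12.

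The ratio of Apoa4 to Apoa1 was 0.0269 to 0.142 in NC livers (median 0.0827), 0.0278 to 0.111 in HFD livers (median 0.0693) and 0.0157 to 0.0860 in SZ-A livers (median 0.0220). The SZ-A mice were low except for SZ-A5. The mean log2 ratio differed by -1.23 between SZ-A and HFD and by -1.35 between SZ-A and NC, each with a p of 0.0368 and an adjusted p of 0.0828 (exact permutation test), so neither passed. Without SZ-A5 the differences were -1.57 and -1.69, with adjusted p of 0.0223 and 0.0244 by the exact permutation test.

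Apoe encodes the ligand by which receptors clear remnants. It was 9387 to 13119 FPKM in NC livers (median 10121), 10136 to 13686 FPKM in HFD livers (median 11260) and 10156 to 11761 FPKM in SZ-A livers (median 11086). The ranges overlapped, with log2 fold changes of 0.15 for HFD against NC (95% interval -0.10 to 0.41) and -0.07 for SZ-A against HFD (95% interval -0.29 to 0.14). Apoc1, its neighbour on chromosome 7, encodes an inhibitor of remnant binding to receptors. It was 2393 to 3149 FPKM in NC livers (median 2763), 2488 to 4077 FPKM in HFD livers (median 2919) and 2501 to 3694 FPKM in SZ-A livers (median 3482). Its log2 fold change was 0.14 for HFD against NC, 0.10 for SZ-A against HFD and 0.24 for SZ-A against NC, with limma adjusted p of 0.469, 0.781 and 0.226. On the common-sum scale Apoe and Apoc1 were called higher in HFD than in NC, by 0.34 and 0.33 on the log2 scale with limma adjusted p of 0.0207 and 0.0471, where all genes had a median of 0.15.

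The ratio of Apoc1 to Apoe was 0.240 to 0.295 in NC livers (median 0.266), 0.232 to 0.298 in HFD livers (median 0.259) and 0.246 to 0.325 in SZ-A livers (median 0.317). 4 of the 6 SZ-A mice lay above every mouse of the other groups. The mean log2 ratio differed by 0.17 between SZ-A and HFD and by 0.16 between SZ-A and NC, each with an adjusted p of 0.179 (exact permutation test), and by -0.01 between HFD and NC.

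**Figure D4:**
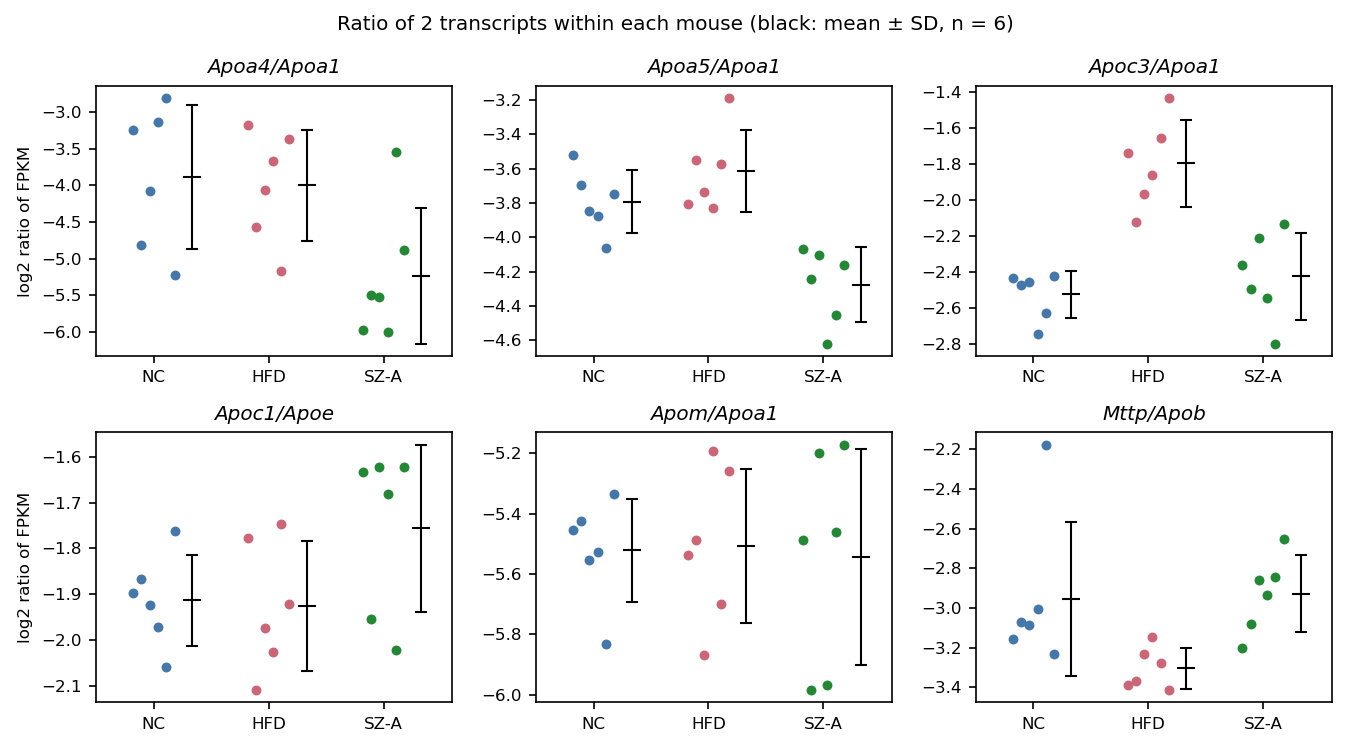
Log2 ratio of FPKM of 2 transcripts within each mouse (y axis, not from 0) for the 6 ratios tested, with the mean ± SD of 6 mice in black. HFD points stand above both other groups for Apoc3 to Apoa1 and SZ-A points below both for Apoa5 to Apoa1, while the 3 groups overlap for Apom to Apoa1.

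By mean level over the 18 mice, Apoa2 ranked 3, Apoe 5, Apoa1 6, Apoc1 17, Apoc3 39, Apob 104, Apoa5 108, Apoa4 118, Apom 329 and Mttp 787 among all genes. The ranges over all mice overlapped between neighbours in this order except between Apoc1 and Apoc3, between Apoc3 and Apob and between Apom and Mttp.

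The gene tested whose course over the 18 mice was nearest to that of Apom was Grb14, an adaptor that binds the insulin receptor. The measure is the root mean square difference of log2 values centred on each gene's mean. It was 0.17 for Grb14, 0.19 for Pnpla7 and 0.21 for Timm17b, where the values of Apom itself had a root mean square of 0.43. For Apoa1, at 0.47, the nearest were Rbp4, the plasma carrier of retinol, at 0.22, then Pcyt2 at 0.24 and Aspdh at 0.24. Apoc3 was nearest to another member, Apoa2, at 0.12, with Apoh next at 0.13. The nearest genes to the rest were Surf1 for Apoa2, Hgd for Apoa5, Cnot1 for Apob, Ptms for Apoc1, Fam174a for Apoe and Ufd1 for Mttp, at 0.09 to 0.15, and Cidec for Apoa4, at 0.55 beside 1.05 for Apoa4 itself.

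Of 16 other apolipoproteins and HDL-borne proteins tested, 7 were higher and 2 lower in HFD than in NC livers, with a median log2 fold change of 0.07. For this list and those below, the shares over all genes tested were 10.7% higher and 9.49% lower in HFD. Saa4, a serum amyloid A protein carried on HDL, rose from 59.3 ± 20.6 to 250 ± 90.7 FPKM (limma, adjusted p = 0.00111) and was 227 ± 34.7 FPKM in SZ-A livers. Saa1, Saa2, Apol7a, Apol9a, Apol9b and Clu were the others that rose. Apoc4 fell from 252 ± 36.0 to 176 ± 11.9 FPKM (limma, adjusted p = 0.00289) and was 225 ± 12.8 FPKM in SZ-A livers, with a limma adjusted p of 0.0557 against HFD. Apoc2, the activator of lipoprotein lipase, fell from 2.72 to 0.919 FPKM (limma, adjusted p = 0.00175), an uncertain value: the annotated gene Gm44805 covers the Apoc2 gene and most of Apoc4 on the same strand, and reads in the shared bases could be split or left out.

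Of 13 genes of HDL assembly and remodelling tested, 3 were higher and 1 lower in HFD than in NC livers. The sterol exporters Abca1 (18.7 to 22.7 FPKM), Abcg1 (1.55 to 2.597 FPKM) and Abcg5 (21.2 to 36.3 FPKM) rose, and Bmp1, the protease that cleaves the ApoA-I propeptide, fell from 16.3 to 12.5 FPKM (limma, adjusted p = 0.00486). Of 23 genes of VLDL assembly and secretion tested, 2 were higher and 1 lower. Dgat2, which makes triglyceride, rose from 127 ± 12.7 to 198 ± 19.1 FPKM (limma, adjusted p = 0.000441) and was 215 ± 24.95 FPKM in SZ-A livers. The carboxylesterase Ces1g rose as well, while Dgat1 fell from 10.01 to 6.68 FPKM. On the common-sum scale Bmp1 and Dgat1 were not called (limma, adjusted p = 0.15 and 0.0762), and the counts were 4 higher and 0 lower for HDL assembly and 3 higher and 0 lower for VLDL assembly. The call of Abca1 was lost in 7 of 12 fits that left out a mouse (HFD1, HFD2, HFD5, NC1, NC2, NC3 or NC4).

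Of 11 genes of lipolysis and its control tested, 3 were higher and 2 lower in HFD than in NC livers. Angptl4, an inhibitor of lipoprotein lipase, fell from 99.2 ± 8.63 to 63.3 ± 10.7 FPKM (limma, adjusted p = 0.0013), and Lpl, the lipase itself, rose from 1.37 to 3.57 FPKM (limma, adjusted p = 0.0017). Of 13 receptor and uptake genes tested, 2 rose (Cd36 and Lrp1) and 2 fell (Lrp5 and Sdc1). Among the regulators of these genes, Srebf1, which drives fatty acid synthesis genes, rose from 6.96 to 20.9 FPKM (limma, adjusted p = 0.00752). Of 4 genes of Apob messenger editing tested, Apobec1, the deaminase, rose from 3.52 to 6.41 FPKM (limma, adjusted p = 0.000441). On the common-sum scale Sdc1 was not called (limma, adjusted p = 0.0931), and the counts became 8 higher and 2 lower for the other apolipoproteins, 5 and 1 for lipolysis and 2 and 1 for the receptors. The call of Lrp1 on the deposited scale was lost in 7 of 12 fits with a mouse left out (HFD1, HFD3, HFD4, HFD6, NC1, NC2 or NC4). The medians of the 7 lists on the deposited scale lay between -0.02 and 0.25 on the log2 scale.

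Between SZ-A and HFD livers, 0.147% of all genes were called, and 1 of the genes in these 7 lists. This was Cd36, a fatty acid translocase, which fell from 96.5 ± 16.4 to 43.4 ± 17.7 FPKM (limma, adjusted p = 0.0382). The call was lost in 8 of 12 fits that left out a mouse (SZ-A1, SZ-A3, SZ-A4, SZ-A6, HFD1, HFD2, HFD4 or HFD6), and with no filter on low values, eBayes without trend, the replicate block or the length tilt as a covariate, with limma adjusted p of up to 0.215. Over its 26 alternatives the log2 fold change was -1.40 to -1.14. Between SZ-A and NC livers, 5.31% of all genes were higher and 4.3% lower. Of 16 other apolipoproteins tested, 3 were higher and 1 lower, and of 13 HDL assembly genes 1 was higher. Of 23 VLDL assembly genes, 2 were higher and 1 lower, and of 11 lipolysis genes 2 were higher and 1 lower. Of 13 receptors 2 were lower, of 23 regulators 1 was higher, and of 4 editing genes 1 was higher. On the common-sum scale the counts were 1 higher and 1 lower for VLDL assembly and 1 and 0 for lipolysis. They were 0 and 0 for HDL assembly, and unchanged for the other lists. Of 12 fits that left out a mouse, the call was lost in 10 for Dgat1, 9 for Ces1g and Apoc2, and 8 for Angptl4. It was lost in 0 for Saa4, Apol9a, Dgat2, Lrp5, Sdc1 and Apobec1.

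Markers of other liver cells are given for the same groups. The 11 markers of macrophages and Kupffer cells summed to 132 to 270 FPKM in NC livers, to 257 to 418 FPKM in HFD livers and to 226 to 323 FPKM in SZ-A livers, and of 9 tested, 4 were higher in HFD than in NC and 1 was lower in SZ-A than in HFD. The 7 stellate cell markers summed to 35.7 to 50.6, 40.6 to 91.4 and 37.5 to 55.1 FPKM in the same order, with 5 of 7 called higher in HFD than in NC and 0 called between SZ-A and HFD, where 4 had an unadjusted p under 0.05 by limma. The 5 cholangiocyte markers summed to 10.9 to 39.0, 21.8 to 44.3 and 15.1 to 30.1 FPKM. Most of that sum was Spp1, with means of 17.0, 26.1 and 17.4 FPKM, while Epcam had means of 1.01, 0.802 and 0.923 FPKM and Sox9 of 1.70, 1.26 and 1.07 FPKM. Of the 2 cholangiocyte markers tested, 0 were called between HFD and NC or between SZ-A and HFD, where 2 and 1 had an unadjusted p under 0.05 by limma. The 6 adipocyte markers summed to 32.9 to 115 FPKM in NC, 51.8 to 161 FPKM in HFD and 6.68 to 54.4 FPKM in SZ-A livers. Adipoq, Plin1, Lep and Retn had means under 1 FPKM, and the sum was that of Cfd, with means of 2.91, 52.4 and 7.54 FPKM, and Cidec, with means of 54.4, 30.5 and 18.7 FPKM. In bulk tissue, fewer cells of a type and less RNA per cell cannot be told apart, and the part of these cells in the lower Apoa1, Apom, Apoa5 and Mttp values was not tested.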

How the data were processed

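Liver RNA of 18 mice was measured, and groups and numbers came from the sample titles. The authors prepared poly-A libraries without strand marking, read them as pairs on an Illumina NovaSeq, aligned the reads to GRCm38 with HISAT2 2.0.5 and deposited FPKM for every annotated gene. featureCounts 1.5.0-p3 is named in the submitters' processing notes. FPKM times gene length gave whole fragments for 100% of the values within 0.05 of a fragment, which gave the depth. No 2 mice of a group were duplicates.

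Each comparison was fitted on its own 2 groups with limma 3.58.1 (R 4.3.3, lmFit and eBayes with trend) on log2(FPKM + 0.1), for genes with a mean of at least 1 FPKM. The authors' DESeq2 test was not repeated, since the unit is FPKM. Ratios were tested by exact permutation over 924 splits of the mice. Scripts were tested on simulated data. Figures and ratios used Python 3.11.15, numpy 2.4.6, pandas 2.3.3 and matplotlib 3.10.9. Cell type markers and pathway lists were written by hand.

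The 10 genes, the lists and the tests were chosen with earlier results of these data known. Named beside the members were up to 4 called genes of each list with the smallest adjusted p, and the 3 genes nearest to each member. Saa1, Saa2, Apol7a, Apol9b, Clu and the cell type markers are named outside this rule, with their values known. A gene that the rule covers is not reported here. The alternatives were pseudocounts of 1 and 0.01, no filter, a mean of at least 5 FPKM, a common sum per mouse, median-ratio scaling, all 18 mice in one fit, a replicate block, sample weights, eBayes without trend, voom on whole fragments, an adjusted p alone or with a fold change over 2, and each mouse left out. Length tilt as a covariate and leaving out NC5 and NC6 were added after the data were seen. The replicate numbers were not treated as pairs in the main fits. Same-numbered mice had correlations of -0.117 to 0.292 between their deviations, and the 90 other pairs -0.338 to 0.280.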

Additional observations from a re-analysis of the deposited data

Results flagged for a closer look

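Of 48 groups of 6 mice (10 genes and 6 ratios in 3 groups), 7 held a mouse far from the others, where chance gives about 1 in 20. NC5 was that mouse in 5 of the 7. It was highest for Apoa1 at 13420.0 FPKM (other NC mice 7582 to 8843), for Apoc3 at 2169 FPKM (1321 to 1540) and for Apoe at 13119 FPKM (9387 to 10641). It was lowest for Apob at 328 FPKM (571 to 688), and its log2 ratio of Mttp to Apob was highest, at -2.18 (-3.23 to -3.00). The length tilt of this mouse was -0.38, the lowest of the 18. HFD5 was highest for Apoa2 among HFD mice, at 13582 FPKM (9715 to 10834). SZ-A5 was highest for Apoa4 among SZ-A mice, at 724 FPKM (120 to 246).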

How the results depend on the processing

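Of 992 values of single genes and ratios under the alternatives, 911 kept their direction and their side of the threshold. Members called for HFD against NC were 4, 0 with a fold change over 2, and 4 to 5 with a mouse left out. Apoa1 was not called there with no filter on low values (limma, adjusted p = 0.137). For SZ-A against HFD 1 member was called, Apom. The count was 0 under the replicate block, without the filter on low values, with a fold change over 2 and with length tilt as a covariate. It was 2, Apom and Apoa1, with a mean of at least 5 FPKM, a common sum, all 18 mice in one fit, sample weights or voom, where the limma adjusted p of Apoa1 was 0.0227 to 0.0372. With a mouse left out it was 0 to 2: 0 without SZ-A1, SZ-A3, SZ-A4, SZ-A6, HFD1, HFD2, HFD3, HFD4 or HFD6, and 2 without HFD5. The limma adjusted p of Apom ran from 0.00204 to 0.215 over its alternatives. That of Apoa1 ran from 0.0227 to 0.468, highest with no filter on low values, and passed in 6 of 24 alternatives. With a mouse left out, Apoa1 passed only without HFD5. For SZ-A against NC 2 members were called, 5 with sample weights (Apoa4, Apob and Apoc1 joined, limma adjusted p = 0.033, 0.00542 and 0.0326), 0 with a fold change over 2 and 2 to 3 with a mouse left out. Apart from the removal of mice or genes tested, the cause of these changes was not tested.

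Ratios that passed were 2 for HFD against NC, 3 for SZ-A against HFD and 1 for SZ-A against NC. With the mice paired by replicate number (replicate block) they were 0, 0 and 0. The adjusted p of the ratios that had passed was then 0.0938, the smallest that exact sign flips of 6 pairs gave here. An adjusted p under 0.05 would need most of the 18 tests at the smallest p, so this loss says nothing about pairing. With a mouse left out the ratios that passed were 1 to 2, 3 to 4 and 1 to 2. Mttp to Apob did not pass for HFD against NC without HFD1, HFD2, HFD3, HFD5 or HFD6 (exact permutation test, adjusted p = 0.0519 to 0.0714), and Apoa4 to Apoa1 passed against either group without SZ-A5. The genes called in the pathway lists for SZ-A against HFD went from 1 (Cd36) to 2 with a common sum, while the call of Cd36 itself was lost in 12 of its 26 alternatives.

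Some log2 differences that passed no test changed sign. With a common sum, HFD against NC became 0.11 for Apoa2 and 0.0155 for Apoc3, and SZ-A against HFD became -0.0408 for Apoa2, -0.0597 for Apoa5, -0.0788 for Apoc1 and -0.0269 for Apoc3. Without NC5 and NC6, Apoa2 became 0.0305 for HFD against NC and Apoc3 0.0854 for SZ-A against NC. Apob became 0.0298 for SZ-A against HFD with length tilt as a covariate, and Apoc3 0.10 for SZ-A against NC with sample weights. With a mouse left out, Apoc3 ran from -0.0796 to 0.076 for SZ-A against NC. For HFD against NC, the log2 ratio difference ran from -0.39 to 0.11 for Apoa4 to Apoa1, from -0.0486 to 0.0238 for Apoc1 to Apoe and from -0.0488 to 0.0864 for Apom to Apoa1. For Apom to Apoa1 it ran from -0.11 to 0.0504 for SZ-A against HFD and from -0.0984 to 0.0644 for SZ-A against NC, and for Mttp to Apob from -0.0294 to 0.18 for SZ-A against NC.

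Over all genes, 2062 were called for HFD against NC and 371 with a fold change over 2. For SZ-A against HFD 15 were called, 26 with a mean of at least 5 FPKM, 216 with a common sum, 35 with all 18 mice in one fit, 233 with sample weights, 31 with voom, 7 with a fold change over 2 and 2 to 49 with a mouse left out. It was 0 with no filter, with the replicate block and with the length tilt, where 2741, 1492 and 1016 genes had an unadjusted p under 0.05 by limma. For SZ-A against NC 981 were called, 564 with no filter, 1682 with sample weights, 205 with a fold change over 2 and 601 to 1179 with a mouse left out. The sample titles do not say what the replicate numbers mean. Same-numbered mice had a median correlation of 0.02, over 0.1 in 3 of 18 pairs, which cannot settle whether the numbers mark pairs. Among the members the block changed the calls of Apom for SZ-A against HFD and of Apoa4 for SZ-A against NC (limma, adjusted p = 0.0421). The ratios that had passed were lost too, where the sign flips could hardly give an adjusted p under 0.05. Over all genes it gave 1647, 0 and 922 calls in the 3 comparisons, and Cd36 was among the calls lost for SZ-A against HFD.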
